A study of Homo sapiens with 24 samples.

Results

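The 8 genes described here encode ETS transcription factors, chosen by symbol in the deposited table of read counts: ETV1, ETV4 and ETV5 of the PEA3 group, ETS1 and ETS2 of the ETS group, ELF3 and EHF of the epithelial group, and ELK3, a ternary complex factor. They are 8 of 39786 genes in the table, and 27 of the 28 listed human ETS family genes were found there. Messenger RNA was sequenced from 24 libraries of 2 established carcinoma cell lines, 5637 from bladder and OVCAR8 from ovary. Parental and neratinib-resistant (NR) cells of each line were left untreated (control) or given neratinib for 24 h, which makes 8 groups of 3 libraries. Neratinib, an irreversible inhibitor of the EGFR, ERBB2 and ERBB4 kinases, was given at 600 nM to 5637 and at 1 µM to OVCAR8. All NR cells, including those then given neratinib, had been kept without drug for 1 week before seeding. The drug dose used to select the NR cells, and whether each NR line is 1 clone or a pool, are not given in the sources used here. The 3 libraries of a group are dishes seeded in triplicate, so p-values measure the spread between these dishes only, which may be technical.

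ETS factors share a DNA-binding domain that reads a GGAA core. Genes of the PEA3 group are transcribed when the RAS-ERK cascade below receptor tyrosine kinases is active, in part because ERK relieves their repression by the protein CIC, and the PEA3 proteins are removed by the COP1 ubiquitin ligase. ETS1, ETS2 and ELK3 are instead best known as proteins that ERK phosphorylates directly, whereas ELF3 and EHF mark epithelial differentiation. The design asks how far each of these genes followed inhibition of the receptors, and how far its level differed in resistant cells.

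Library totals ran from 23849832 to 48486296 counts. Levels are given as counts per 1000000 of the library total (CPM). Apart from markers, levels of different genes are set beside each other only as transcripts per 1000000 (TPM), which also divides by gene length. Sums over marker genes are in CPM. Log2 fold changes with their standard error (SE) and adjusted p come from edgeR's quasi-likelihood test with Benjamini-Hochberg adjustment over all genes tested, and a gene was called when its adjusted p was under 0.05. Replicate 2 of the OVCAR8 parental controls stood apart, with 14.1% of its counts in genes longer than 8 kb against 20.4% to 21.2% in the other OVCAR8 libraries. ETV1 there was at 52.9%, ETS1 at 61.6%, ELK3 at 71.1% and ETV5 at 75.3% of the mean of the other parental controls, while ETV4 was at 104% and ETS2 at 96.7%. Calls on the members that change without this library are given both ways. In untreated parental 5637 cells, 5 of 5 epithelial and 4 of 5 urothelial markers reached 1 CPM (UPK3A was at 0.105 CPM). The ovarian carcinoma markers MUC16, PAX8 and WT1 were at 278, 12.1 and 7.26 CPM in the same cells. Summed ovarian markers ran from 231 to 360 CPM there and from 129 to 162 CPM in parental OVCAR8 controls. These sums do not allow for gene length. On the TPM scale MUC16, PAX8 and WT1 were at 18.9, 4.97 and 5.27 in parental 5637 controls. In parental OVCAR8 controls they were at 0.00169, 58.9 and 2.68 TPM, so the CPM sums do not rank the lines. WT1 was at 3.71 CPM in these OVCAR8 controls. In untreated parental OVCAR8 cells EPCAM, KRT8, KRT18 and the Mullerian lineage factor PAX8 (145 CPM) were present, but CDH1 (0.654 CPM) and KRT19 (0.195 CPM) were under 1 CPM, MUC16 was at 0.0245 CPM, and EMX2 and SOX17 were near 0. Summed fibroblast markers in OVCAR8 ran from 736 to 1291 CPM, most of it COL1A1 (1204 CPM in parental controls). PDGFRB was at 24.4 CPM in OVCAR8 parental controls and 49.0 CPM in treated parental cells. LUM was at 1.10 CPM in these controls, and COL1A2, DCN and COL3A1 were near 0. In 5637 the summed fibroblast markers ran from 44.1 CPM in NR controls to 270 CPM in treated parental cells. Summed leukocyte markers reached at most 4.17 CPM and endothelial markers 3.31 CPM in any library.

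In hg19, the build of the deposited table, the PEA3 genes are ETV1 (ENSG00000006468.9) at chr7:13930853-14031050, ETV4 (ENSG00000175832.8) at chr17:41605212-41656988 and ETV5 (ENSG00000244405.3) at chr3:185764097-185828107. The ETS group genes are ETS1 (ENSG00000134954.10) at chr11:128328656-128457453 and ETS2 (ENSG00000157557.7) at chr21:40177231-40196879, the epithelial factors ELF3 (ENSG00000163435.11) at chr1:201977073-201986316 and EHF (ENSG00000135373.8) at chr11:34642640-34682604, and the ternary complex factor ELK3 (ENSG00000111145.3) at chr12:96588160-96663613. ETV4 overlaps DHX8, at a mean of 136 CPM, and the other genes that overlap a member were at most at 2.67 CPM in any library.

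Promoter windows from RefSeq (GRCh38.p14) are shown because several members moved together or in opposite directions across the groups, and are read here for the same short motifs. The RefSeq table matched 5 of 8 members with 13 start-site windows of 300 bases, from 250 bases before to 50 bases after each start. ETV4, ETV5 and ETS1 had no window, so of the PEA3 genes only ETV1 is covered. The most upstream window of ETV1, ETS2 and EHF and the sole window of ELF3 follow, 5′ to 3′ on the gene's strand, with each ETS core (GGAA, or TTCC where it lies on the other strand) in capitals.
ELF3, chr1:202010337-202010636, plus strand: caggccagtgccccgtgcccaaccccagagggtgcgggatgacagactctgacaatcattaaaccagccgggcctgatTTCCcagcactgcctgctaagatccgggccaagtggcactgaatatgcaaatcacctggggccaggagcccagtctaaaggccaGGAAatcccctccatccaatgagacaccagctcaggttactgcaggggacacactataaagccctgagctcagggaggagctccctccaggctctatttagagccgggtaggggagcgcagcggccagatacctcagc
EHF, chr11:34624007-34624306, plus strand: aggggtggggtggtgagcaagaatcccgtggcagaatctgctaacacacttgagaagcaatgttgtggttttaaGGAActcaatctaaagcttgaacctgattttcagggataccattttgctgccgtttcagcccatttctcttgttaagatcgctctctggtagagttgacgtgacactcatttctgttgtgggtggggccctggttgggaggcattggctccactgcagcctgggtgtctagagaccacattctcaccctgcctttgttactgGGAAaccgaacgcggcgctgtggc
ETV1, chr7:13991376-13991675, minus strand: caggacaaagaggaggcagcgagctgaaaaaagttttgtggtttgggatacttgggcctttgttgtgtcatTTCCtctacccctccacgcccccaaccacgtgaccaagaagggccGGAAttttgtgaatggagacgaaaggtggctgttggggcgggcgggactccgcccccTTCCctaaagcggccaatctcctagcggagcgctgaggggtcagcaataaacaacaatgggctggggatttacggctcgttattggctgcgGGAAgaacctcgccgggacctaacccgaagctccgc
ETS2, chr21:38804933-38805232, plus strand: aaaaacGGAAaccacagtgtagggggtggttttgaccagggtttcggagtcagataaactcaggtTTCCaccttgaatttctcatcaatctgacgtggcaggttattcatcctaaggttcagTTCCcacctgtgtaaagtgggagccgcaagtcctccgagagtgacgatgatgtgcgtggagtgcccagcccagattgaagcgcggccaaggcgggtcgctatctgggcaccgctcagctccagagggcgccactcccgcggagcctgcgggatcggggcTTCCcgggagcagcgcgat
The ELF3 window held 2 ETS cores and a TATAAA match that begins 34 bases before the start. EHF held 2 cores, ETV1 held 4 and ETS2 held 4 in the windows shown. A GGAA core on either strand is no distinguishing feature, since 95.5% of 35116 promoter windows of this length held at least 1, whereas TATAAA was found in 11.5%. None of the 13 windows of ELF3, EHF, ETV1, ETS2 and ELK3 held TGAATGAA, the 1 form of the CIC motif searched, which is in 1.65% of all windows. Other forms of the CIC motif were not searched, so its absence is not shown. The ETV1 window above holds TGAATGGA, which differs from the searched form in 1 letter. None of them held TGANTCA, the AP-1 motif, or the NF-kB consensus, which are in 7.71% and 1.61% of all windows on either strand, or AACCGGTT, the motif of the epithelial GRHL factors, which is in 0.134%. These matches describe letters in short windows and say nothing of binding.

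Untreated parental cells of the 2 lines expressed different sets of ETS genes. On the TPM scale EHF led the family in 5637 at 153 ± 7.39 (SD, n = 3), ahead of ELF4 (122 ± 6.26) and ERF (106 ± 1.85), and ETS2 at 91.5 ± 3.08 and ELF3 at 81.5 ± 1.63 came next among the members. ELK3 was at 64.8 ± 2.15 TPM, ETS1 at 41.4 ± 2.12 TPM and ETV4 at 22.8 ± 0.673 TPM, whereas ETV1 (0.930 ± 0.161) and ETV5 (0.0737 ± 0.0462) were at or below 1 TPM. In OVCAR8 the order was led by ETS1 at 123 ± 38.3 TPM, followed by ERF at 87.9, ELK3 at 67.5 ± 16.8, ETS2 at 45.2 ± 4.04 and ETV4 at 43.4 ± 2.16. ETV5 stood at 32.6 ± 7.09 TPM and ETV1 at 4.95 ± 1.85 TPM in OVCAR8, while ELF3 was at 0.0844 ± 0.0381 TPM and EHF had no read in any of the 3 libraries. The plot of the whole family shows these levels in both lines.

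**Figure D1:**
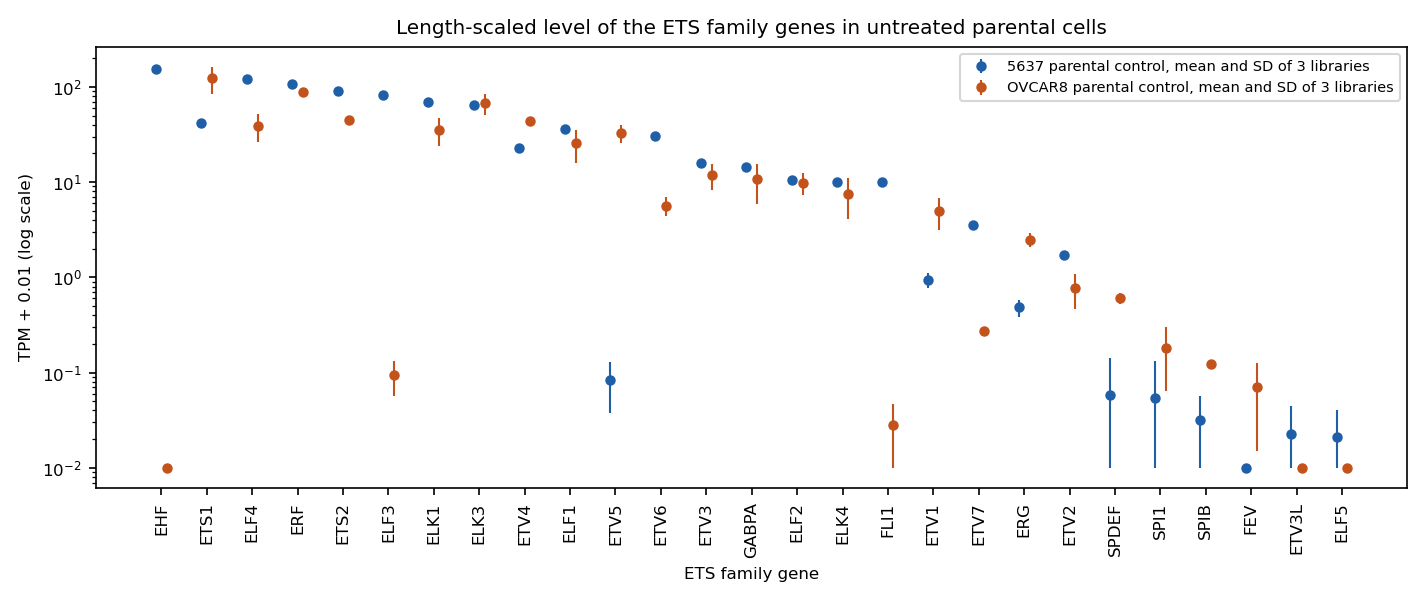
Length-scaled levels (TPM + 0.01, log axis) of 27 ETS family genes in untreated parental 5637 (blue) and OVCAR8 (orange) cells, as mean and SD of 3 libraries, with lower bars that end at 0 TPM where the SD exceeds the mean. EHF and ELF3 are high in 5637 (153 and 81.5 TPM) and at or near 0 in OVCAR8, ETV5 shows the opposite order (0.0737 and 32.6 TPM), and ELK3 lies at a similar level in both lines.

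Between the untreated parental lines, 4 of the 8 members were higher in OVCAR8 and 3 were lower, against 36.8% and 35.1% of the 20250 genes tested. ETV5 was 425-fold higher in OVCAR8 (log2 difference 8.73 ± 0.19, SE, adjusted p = 1.8e-21), ETV1 5.28-fold higher and ETV4 1.93-fold higher. The ETV5 fold rests on 18 reads in 5637, and its log2 difference ran from 8.33 to 9.26 over all alternatives. ETS1, a factor tied to invasion and angiogenesis, was 2.95-fold higher in OVCAR8 (1.56 ± 0.10, adjusted p = 1.2e-12). ETS2 was 2.0-fold lower in OVCAR8 and ELF3 947-fold lower. The ELF3 fold rests on 24 reads in OVCAR8, and its log2 difference ran from -10.1 to -9.47 over all alternatives. EHF, at 0 counts in OVCAR8, was at least 2896-fold lower there when a floor of 3 counts per library, a mean of 0.0775 CPM, is set for OVCAR8. ELK3 did not pass the test (0.06, 95% interval -0.11 to 0.22, adjusted p = 0.54), although without OVCAR8 parental control replicate 2 it did, at 0.16 (adjusted p = 0.0093; range over all alternatives 0.0093 to 0.97).

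In parental 5637 cells neratinib lowered the PEA3 genes ETV4 and ETV1 by more than any other member. ETV4, the most abundant of the 3, stood at 27.7, 27.7 and 27.3 CPM in the controls and at 2.49, 3.61 and 2.38 CPM on neratinib. All treated libraries lay far below all controls, and ETV4 fell 10.5-fold (log2 fold change -3.39 ± 0.12, SE, adjusted p = 5.9e-12). ETV1 was at 3.14, 3.40 and 2.49 CPM without drug and at 0.351, 0.0997 and 0.654 CPM with it. The treated libraries of ETV1 spread widely at these low counts but stayed below every control, a fall of 8.60-fold (-3.10 ± 0.31, adjusted p = 9.7e-07), or -3.85 without parental neratinib replicate 3. ETV5 was barely detected in parental 5637 cells, at 0.0498, 0.148 and 0.235 CPM in controls and 0.0270, 0.0997 and 0.0467 CPM on drug. These ETV5 groups overlapped and the difference did not pass the test (-1.38, 95% interval -2.67 to -0.09, adjusted p = 0.073). ETV5 did pass without parental control replicate 1 (-1.77, adjusted p = 0.019) or without parental neratinib replicate 2 (-1.98, adjusted p = 0.044), within a range of 0.019 to 0.35 over all alternatives.

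The remaining members moved less in parental 5637 cells, and 2 of them rose. ETS2 was at 140.1, 143 and 139 CPM in controls and at 235, 235 and 239 CPM on neratinib, a narrow spread in both groups with no overlap. This was a rise of 1.56-fold for ETS2 (0.64 ± 0.04, adjusted p = 1.6e-08). ELF3, which activates genes of epithelial differentiation, went from 189, 196 and 204 CPM to 311, 304 and 302 CPM. The treated ELF3 libraries lay clear of the controls, a rise of 1.45-fold (0.53 ± 0.05, adjusted p = 1.1e-06). EHF, the other epithelial factor, fell from 224, 231 and 218 CPM to 191, 180.3 and 194 CPM, again without overlap (-0.36 ± 0.07, adjusted p = 0.00073). ETS1 showed the smallest called change, from 103, 98.9 and 96.2 CPM to 90.8, 91.6 and 90.4 CPM (-0.23 ± 0.06, adjusted p = 0.0036), and that call was lost with library totals as the only scaling (adjusted p = 0.089) and in the fit of all 24 libraries (0.096, the highest of its alternatives, whose lowest was 0.00036). ELK3, at 101, 102 and 99.4 CPM and then 102, 105 and 111 CPM, did not pass (-0.03, 95% interval -0.15 to 0.08), and its sign turned to 0.07 with library totals as the only scaling.

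In this comparison 2 of 8 members were called higher and 4 lower, against 23.9% and 23.5% of the 18307 genes tested in 5637. Many genes passed the test in this line. ETV1 and ETV4 were the 2 of 8 called with a change of at least 2-fold, against 9.38% of all genes. The median over the 8 members was -0.30 on the log2 scale, against 0.02 over all genes. With library totals as the only scaling, the median of all genes moved to 0.13 and 64.2% of all calls were higher, where it was 50.4% otherwise, and none of the called members changed sign.

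**Figure D2:**
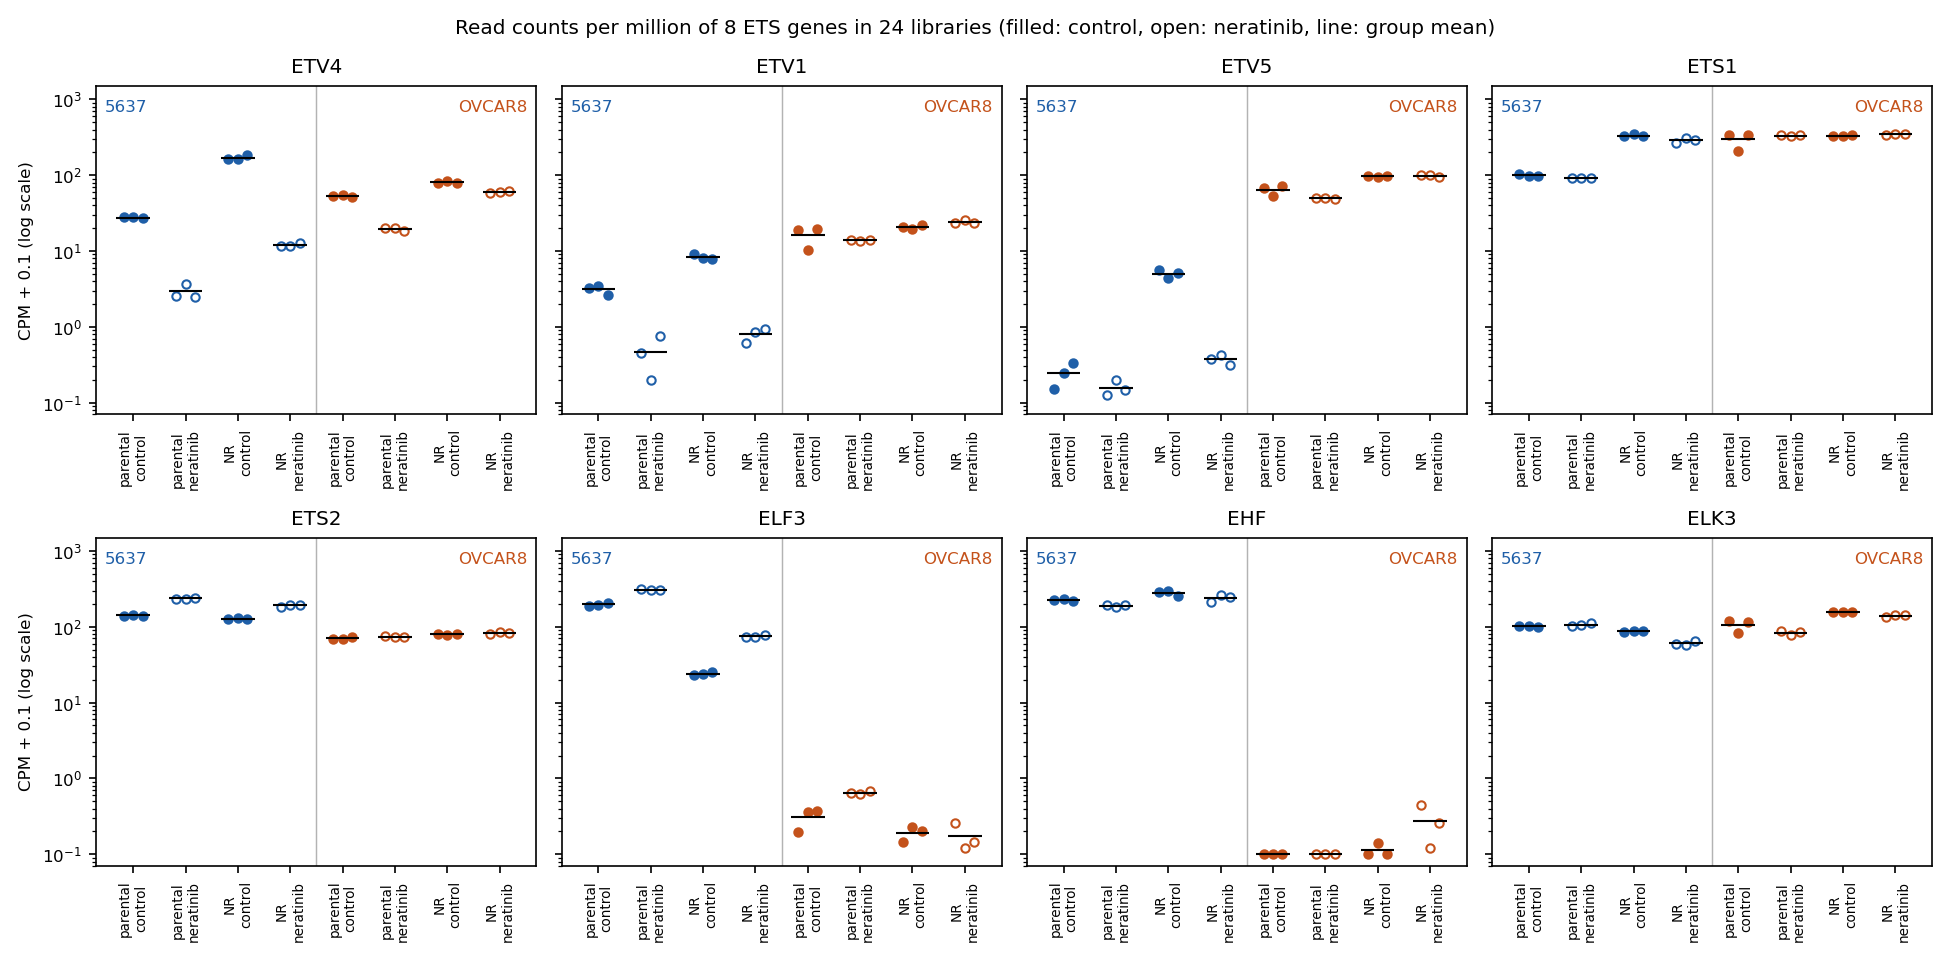
Levels (CPM + 0.1, log axis) of the 8 members in each of the 24 libraries, 5637 in blue and OVCAR8 in orange, with control libraries filled, neratinib libraries open and a line at each group mean. In 5637 the PEA3 genes ETV4, ETV1 and ETV5 are highest in NR control cells, ELF3 is lowest there, and EHF and ELF3 are at or near 0 in OVCAR8.

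In 5637 NR cells neratinib lowered all 3 PEA3 genes by more than 10-fold. ETV4 went from 165, 163 and 182 CPM without drug to 11.6, 11.4 and 12.7 CPM with it, 15.6-fold lower (-3.96 ± 0.10, adjusted p = 3.3e-13). ETV5, which was measurable in NR cells, went from 5.46, 4.33 and 4.97 CPM to 0.277, 0.328 and 0.212 CPM, 19.5-fold lower (-4.28 ± 0.27, adjusted p = 5.4e-09). ETV1 went from 9.15, 8.06 and 7.78 CPM to 0.508, 0.765 and 0.849 CPM, 12.9-fold lower (-3.69 ± 0.26, adjusted p = 2.9e-08). In each of the 3 genes every treated library lay far below every control library. On the TPM scale the sum of the 3 PEA3 genes was 147 ± 7.68 in NR controls and 10.3 ± 0.941 in treated NR cells, beside 23.8 ± 0.793 and 2.56 ± 0.516 in the parental groups.

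The other members of treated 5637 NR cells included the largest rise of any member with drug in that line. ELF3 went from 22.7, 23.5 and 25.3 CPM in NR controls to 74.0, 72.2 and 76.7 CPM on neratinib. Its groups were far apart, and ELF3 rose 2.85-fold (1.51 ± 0.06, adjusted p = 3.0e-11). ETS2 rose from 126, 128 and 125 CPM to 184, 195 and 192 CPM (0.46 ± 0.04, adjusted p = 9.0e-07). ELK3, which in its unphosphorylated form represses its targets, fell from 85.4, 86.5 and 87.0 CPM to 59.7, 56.8 and 63.7 CPM, 1.57-fold (-0.65 ± 0.05, adjusted p = 2.0e-07). ETS1 went from 324, 351 and 325 CPM to 265, 311 and 291 CPM (-0.33 ± 0.06, adjusted p = 0.00026), with all treated libraries below all controls. EHF went from 284, 298 and 252 CPM to 209, 263 and 246 CPM, where 1 treated library exceeded the lowest control, and was called lower (-0.34 ± 0.07, adjusted p = 0.0013). In total 2 members were called higher and 6 lower, against 18.4% and 21.1% of all genes, and 4 of 8 (the PEA3 genes and ELF3) changed by at least 2-fold, against 7.53%. Higher genes made up 46.6% of all calls, or 67.4% with library totals as the only scaling, which moved the median of all genes to 0.12 and changed no member's sign.

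**Figure D3:**
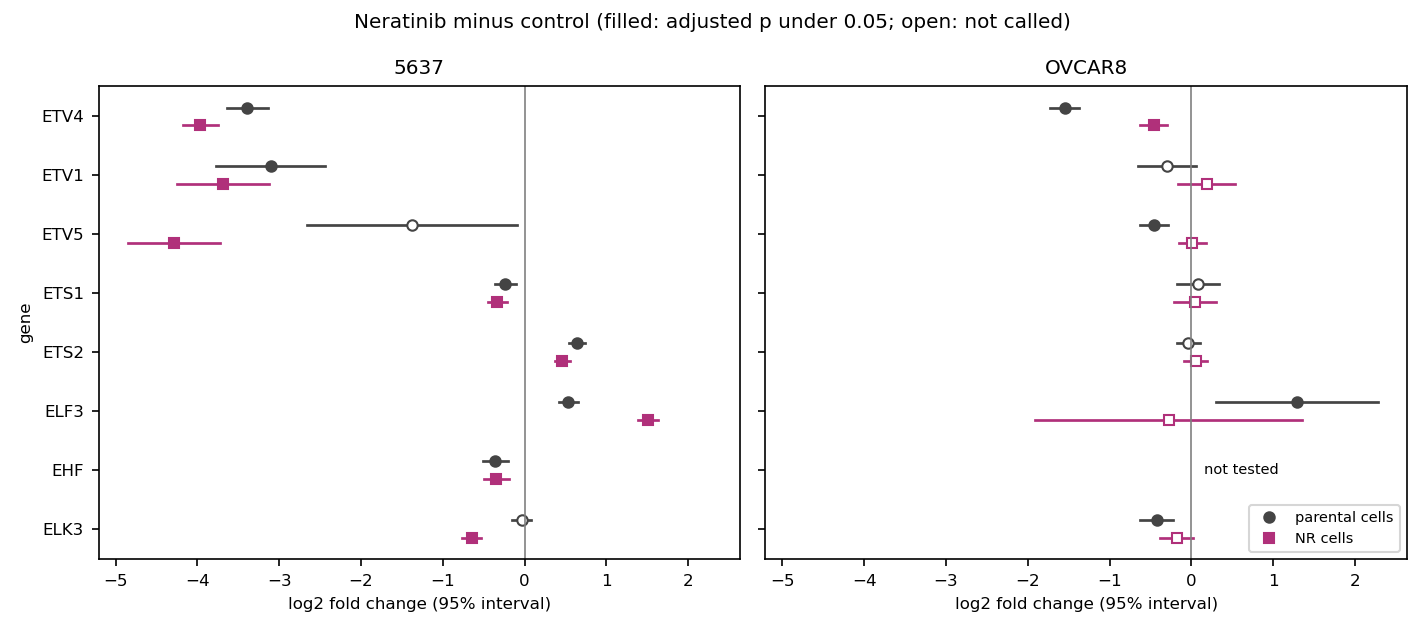
Log2 fold change on neratinib (neratinib minus control) of the 8 members in 5637 and OVCAR8, with 95% intervals, in parental cells (grey circles) and NR cells (magenta squares), filled where the adjusted p was under 0.05. In 5637, ETV4 and ETV1 lie near or below -3 in both states and ELF3 lies further to the right in NR cells, whereas in OVCAR8, where EHF was not tested, ETV4 in parental cells is the one value below -1.

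The drug effect differed between NR and parental 5637 cells for 4 of 8 members, 1 towards higher and 3 towards lower, against 7.39% and 6.48% of all genes. ELF3 rose more in NR cells, by 0.98 ± 0.08 on the log2 scale (adjusted p = 8.7e-07). ELK3, whose change in parental cells did not pass, fell in NR cells, a difference of -0.62 ± 0.08 (adjusted p = 6.0e-05). ETV4 fell further in NR cells by -0.58 ± 0.15 (adjusted p = 0.020) and ETV5 by -2.90 ± 0.82 (adjusted p = 0.027). Both calls turned on libraries of the parental neratinib group: without its replicate 2 the ETV4 difference was -0.35 (adjusted p = 0.097) and that of ETV5 -2.31 (adjusted p = 0.23), and without its replicate 3 that of ETV5 was -3.05 (adjusted p = 0.056). Over all alternatives the adjusted p ran from 0.00072 to 0.097 for ETV4 and from 0.0016 to 0.23 for ETV5. The ETV5 difference rests on 18 reads in the parental controls and 7 in the parental neratinib libraries. ETV1 (-0.59, 95% interval -1.57 to 0.40), ETS1 (-0.10, -0.27 to 0.07), ETS2 (-0.18, -0.31 to -0.04, adjusted p = 0.074) and EHF (0.01, -0.20 to 0.23) did not pass.

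Without drug, all 8 members differed between NR and parental 5637 cells. The PEA3 genes were all higher. ETV5 went from at most 0.235 CPM in the parental libraries to between 4.33 and 5.46 CPM in NR, 32.8-fold (5.03 ± 0.29, adjusted p = 7.6e-10), on 18 and 560 reads in all. ETV4 stood near 27.5 CPM in the 3 parental libraries and between 163 and 182 CPM in NR, 6.12-fold higher (2.61 ± 0.09, adjusted p = 2.4e-12), and ETV1 rose 2.74-fold (1.45 ± 0.22, adjusted p = 3.2e-05). With this, ETV4 became the second ETS gene of NR cells by TPM (141 ± 7.88), after EHF (190.2 ± 18.3) and beside ETS1 (139.7 ± 8.44). ETS1, at 96.2 to 103 CPM in parental and 324 to 351 CPM in NR cells, was 3.32-fold higher (1.73 ± 0.06, adjusted p = 1.2e-12). ELF3 showed the opposite: from 189 to 204 CPM in parental cells it was lower in NR cells, at 22.7 to 25.3 CPM, an 8.31-fold difference (-3.05 ± 0.06, adjusted p = 4.5e-15). Beside ELF3, the sum of the 5 urothelial markers in the table was 540.4 to 576 CPM in NR controls, 1189 to 1291 CPM in treated NR cells and 4043 to 4133 CPM in parental controls. Nearly all of it was KRT5, at means of 547, 1235 and 3948 CPM, while KRT13 went from 128 CPM in parental to 0.121 CPM in NR controls and UPK2 from 1.29 to 2.12 CPM. Their part in the result was not tested, and in bulk RNA fewer cells of a type and less RNA per cell cannot be told apart. The 2 epithelial factors parted here, since EHF was 1.22-fold higher in NR cells (0.29 ± 0.07, adjusted p = 0.0025). ETS2 (-0.17 ± 0.04, adjusted p = 0.0046) and ELK3 (-0.24 ± 0.05, adjusted p = 0.0014) were slightly lower, with no overlap between the groups. In all, 5 members were higher and 3 lower, against 28.4% and 28% of all genes, and 5 of 8 differed by at least 2-fold, against 17.6%. DHX8, which overlaps ETV4, encodes a helicase, and the counting's use of strand is not given in the sources used here. DHX8 was lower in 5637 NR controls (-0.34, adjusted p = 3.4e-05) and fell on neratinib in parental 5637 cells (-0.19, adjusted p = 0.0072). It did not pass on neratinib in 5637 NR cells (-0.04) or parental OVCAR8 cells (0.09), or between untreated OVCAR8 states (0.16), and its part in the ETV4 values was not tested.

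On neratinib, NR and parental 5637 cells still differed for 7 of 8 members, 4 higher and 3 lower, against 28.8% and 29.2% of all genes. ETV4 was 4.11-fold higher in treated NR than in treated parental cells (2.04 ± 0.12, adjusted p = 9.8e-10), ETV5 4.37-fold higher at very low counts (2.13 ± 0.54, adjusted p = 0.0030, or 2.73 without parental neratinib replicate 2) and ETS1 3.10-fold higher (1.63 ± 0.06, adjusted p = 2.8e-12). ELF3 was 4.21-fold lower (-2.07 ± 0.06, adjusted p = 1.6e-13), and ELK3 1.81-fold lower (-0.86 ± 0.05, adjusted p = 2.7e-09). ETS2 was lower by -0.35 and EHF higher by 0.31. ETV1 did not pass (0.86, 95% interval 0.03 to 1.70, adjusted p = 0.071), though 5 alternatives called it, and its adjusted p ran from 0.0036 without parental neratinib replicate 3 to 0.27. Every call on EHF in 5637 within a state or treatment was lost in the fit of all 24 libraries (adjusted p from 0.058 to 0.073) and held in the other alternatives, with adjusted p down to 9.7e-07.

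**Figure D4:**
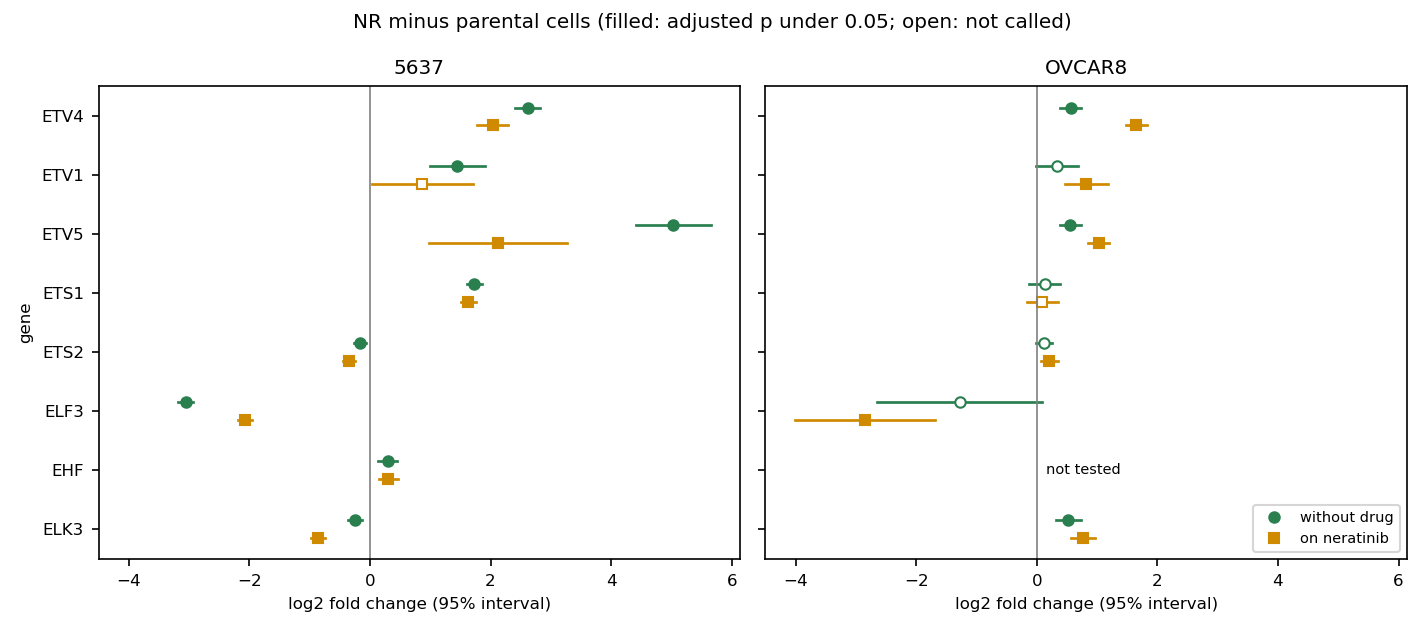
Log2 fold change of NR against parental cells for the 8 members in 5637 and OVCAR8, with 95% intervals, without drug (green circles) and on neratinib (orange squares), filled where the adjusted p was under 0.05. In 5637, ETV5, ETV4, ETS1 and ETV1 lie to the right and ELF3 far to the left, whereas in OVCAR8 ETV4, ETV5 and ELK3 lie to the right by less than 1 without drug.

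In parental OVCAR8 cells ETV4 was again the member that fell most, but by less than in 5637. ETV4 stood at 52.8, 54.6 and 52.1 CPM in controls and at 20.2, 20.2 and 18.1 CPM on neratinib. The groups were well separated, and the fall was 2.92-fold (-1.55 ± 0.08, adjusted p = 2.6e-07). ETV5 was at 67.8, 52.3 and 71.1 CPM in controls and at 50.1, 50.5 and 47.8 CPM on drug. Its lowest control is replicate 2, the library that stands apart, and ETV5 fell 1.37-fold with it (-0.46 ± 0.08, adjusted p = 0.00099) and by 0.54 on the log2 scale without it. ETV1 was at 18.8, 10.1 and 19.3 CPM in controls and at 14.0, 13.4 and 14.1 CPM on drug. The low replicate 2 lay below all treated libraries and the other controls above them, so that ETV1 did not pass with all libraries (-0.30, 95% interval -0.65 to 0.05, adjusted p = 0.18) and was called without that library (-0.51, adjusted p = 2.8e-06, the lowest of its alternatives, whose highest was 0.49).

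ELK3 fell in parental OVCAR8 cells, from 120.1, 83.1 and 114 CPM to 87.4, 77.3 and 86.2 CPM (-0.43 ± 0.09, adjusted p = 0.0045), where replicate 2 of the controls lay among the treated libraries, and it fell by 0.53 without that library. The ELK3 call was lost in the fit of the 6 libraries compared (-0.42, adjusted p = 0.065; range over all alternatives 6.8e-09 to 0.065). ELF3, with 24 reads in the 3 controls and 71 in the 3 treated libraries, was called higher at 1.29 ± 0.45 (adjusted p = 0.046), a call that 12 of 20 alternatives lost (adjusted p from 0.0014 to 0.14). ETS1, at 339.9, 209 and 338 CPM and then 337, 324 and 335 CPM, and ETS2, at 69.3, 68.8 and 73.1 CPM and then 74.8, 72.2 and 73.3 CPM, overlapped between groups. Their changes of 0.08 (95% interval -0.18 to 0.34) and -0.04 (-0.18 to 0.10) did not pass. The sign turned for ETS1 without replicate 2 (-0.08) and for ETS2 with library totals as the only scaling (0.06). Of the 7 members tested in OVCAR8, 1 was called higher and 3 lower, against 16.2% and 16.3% of 18072 genes, where library totals as the only scaling made 62.6% of all calls higher in place of 49.8%. EHF, with 0, 0, 1 and 21 reads in the 4 groups, did not pass the filter on low counts and was not tested.

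In OVCAR8 NR cells the response of the members to neratinib was small. ETV4 went from 79.4, 84.2 and 79.9 CPM to 57.8, 59.7 and 61.3 CPM, which did not overlap, and fell 1.38-fold (-0.46 ± 0.08, adjusted p = 0.015). This call on ETV4 was lost when any of the 6 NR libraries was left out (adjusted p from 0.066 to 0.093), while its size stayed between -0.48 and -0.44 and its adjusted p between 2.1e-07 and 0.093 over all alternatives. ETV5 did not pass, at 97.0, 95.2 and 96.6 CPM without drug and 99.5, 100.2 and 95.2 CPM with it (0.01, 95% interval -0.16 to 0.18), and neither did ETV1, at 20.6, 19.5 and 22.1 CPM and then 22.99, 25.6 and 23.1 CPM (0.19, -0.16 to 0.53). Both intervals end at -0.16 on the side of a fall. ELK3 went from 157, 154 and 157 CPM to 135, 142 and 141 CPM without overlap, and did not pass (-0.18, -0.38 to 0.02, adjusted p = 0.43). Of 7 members, 0 were called higher and 1 lower, against 0.642% and 0.747% of all genes. Without parental control replicate 2, whose spread enters the shared estimate, 3950 genes were called in place of 251, and ELK3 (-0.19, adjusted p = 0.0031) and ETV1 (0.17, adjusted p = 0.049) were then called as well as ETV4.

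Without drug, ETV4, ETV5 and ELK3 were higher in OVCAR8 NR than in parental cells. ETV4 was at 52.1 to 54.6 CPM in parental and 79.4 to 84.2 CPM in NR cells, 1.48-fold higher (0.56 ± 0.08, adjusted p = 0.00065). ETV5 was at 52.3 to 71.1 and 95.2 to 97.0 CPM, 1.47-fold higher (0.56 ± 0.08, adjusted p = 0.00072), and ELK3 at 83.1 to 120.1 and 154 to 157 CPM, 1.44-fold higher (0.53 ± 0.09, adjusted p = 0.0035). None of these groups overlapped, and all 3 calls held without replicate 2 of the parental controls, at 0.63, 0.47 and 0.42. The ELK3 call was lost in the fit of the 6 libraries compared (0.52, adjusted p = 0.082; range over all alternatives 1.1e-06 to 0.082). ETV1 (0.34, 95% interval -0.01 to 0.69), ETS1 (0.13, -0.13 to 0.39), ETS2 (0.12, -0.02 to 0.26) and ELF3 did not pass, and ETS2 did without that library (0.15, adjusted p = 0.018, the lowest of a range up to 0.60). The count was 3 higher and 0 lower of 7, against 4.94% and 4.91% of all genes.

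On neratinib the OVCAR8 states lay further apart. Treated NR cells had 3.13-fold more ETV4 than treated parental cells (1.65 ± 0.08, adjusted p = 9.8e-08), 2.04-fold more ETV5 (1.03 ± 0.08, adjusted p = 3.0e-06) and 1.77-fold more ETV1 (0.83 ± 0.16, adjusted p = 0.0023). ETS1 did not pass with all libraries (0.09, 95% interval -0.17 to 0.35) but did without parental control replicate 2 (0.08, adjusted p = 0.040) and in the fit of the 6 libraries compared (0.10, adjusted p = 0.010; range over all alternatives 0.010 to 0.80). ELK3 was 1.71-fold higher (0.77 ± 0.09, adjusted p = 8.5e-05). ETS2, at 74.8, 72.2 and 73.3 CPM in parental and 80.7, 84.9 and 83.0 CPM in NR cells, was called at 0.21 (adjusted p = 0.026), and 8 of 21 alternatives lost this call (adjusted p up to 0.22, down to 6.3e-05). ELF3 was lower by -2.85 ± 0.53 (adjusted p = 0.0018), on 71 reads against 9, and by -3.89 without NR neratinib replicate 1. With 5 members higher and 1 lower of 7, the background was 14.6% and 16.4%. On the TPM scale the PEA3 sum of OVCAR8 went from 80.9 ± 10.95 to 47.8 ± 1.45 with drug in parental cells and from 128 ± 0.966 to 110.2 ± 0.631 in NR cells.

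The drug effects in OVCAR8 NR and OVCAR8 parental cells were compared directly by the difference between them, in which 2 of 7 members were called higher and 0 lower, against 4.62% and 4.21% of all genes. ETV4 differed by 1.09 ± 0.11 (adjusted p = 0.00029), the opposite direction to that in 5637. ETV5 differed by 0.47 ± 0.11 (adjusted p = 0.022), a call that 10 of 20 alternatives lost (adjusted p up to 0.10) and that stood without parental control replicate 2 at 0.54 (adjusted p = 5.4e-07). ETV1 (0.49, 95% interval -0.01 to 0.98) and ELK3 (0.24, -0.04 to 0.53) did not pass with all libraries, and both did without that library, at 0.69 (adjusted p = 7.2e-06, up to 0.37 over all alternatives) and 0.34 (adjusted p = 0.00033, up to 0.57). Higher genes made up 52.4% of all calls, or 40.5% with library totals as the only scaling.

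The lines were then compared directly, at drug doses that differ. The drug effect in parental cells was called different for 4 of 8 members, 2 towards higher values in OVCAR8 and 2 towards lower, against 5.46% and 4.83% of all genes. All values are OVCAR8 minus 5637. ETV1 fell less in OVCAR8 than in 5637, by 2.79 ± 0.37 (adjusted p = 1.7e-05, or 3.52 without 5637 parental neratinib replicate 3). Its fall in OVCAR8 did not pass with all libraries. ETV4 also fell less in OVCAR8, by 1.83 ± 0.15 (adjusted p = 1.4e-08). The changes of ETS2 (-0.69 ± 0.08, adjusted p = 2.3e-06) and ELK3 (-0.40 ± 0.11, adjusted p = 0.020) were relatively lower in OVCAR8. The ELK3 call was lost in 7 of 31 alternatives (adjusted p from 1.7e-05 to 0.085). In NR cells the line difference of the drug effect was called for all PEA3 genes: 4.29 ± 0.23 for ETV5, 3.87 ± 0.32 for ETV1 and 3.49 ± 0.14 for ETV4 (adjusted p from 4.2e-14 to 1.1e-08). ELK3 (0.46) and ETS2 (-0.42) were also called, which with EHF makes 5 higher and 1 lower, against 5.04% and 4.78%; the EHF call (4.05) rests on 1 and 21 reads in OVCAR8. The ELK3 call was lost with library totals as the only scaling (adjusted p = 0.090, from 2.7e-05), the ETS2 call without a filter (0.068, from 7.4e-10), and the EHF call in 3 of 31 alternatives (up to 0.067, from 0.00012). Higher genes made up 51.3% of all calls there, or 32.4% with library totals as the only scaling. ETS1 did not pass there (0.36, adjusted p = 0.10) and did without OVCAR8 parental control replicate 2 (0.37, adjusted p = 0.00022, up to 0.36 over all alternatives). The difference between NR and parental cells without drug was smaller in OVCAR8 for ETV5 (-4.50 ± 0.25), ETV4 (-2.07 ± 0.14), ETS1 (-1.62 ± 0.14) and ETV1 (-1.13 ± 0.28, adjusted p = 0.0028). ELK3 differed by 0.75 ± 0.11 (adjusted p = 1.2e-05), since it was higher in NR cells of OVCAR8 and lower in those of 5637, and ETS2 by 0.27 ± 0.08. ELF3 (1.76) was called from 24 and 9 reads in OVCAR8, which makes 3 higher and 4 lower, against 14.8% and 18.1%. That ELF3 call was lost in 3 of 31 alternatives (adjusted p from 0.0052 to 0.13) and the ETS2 call in 1, without a filter (0.21, from 1.0e-04).

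Ordered by mean CPM over the 8 groups, ETV4 was highest in 5637 NR control (170.2 CPM), then in OVCAR8 NR control, OVCAR8 NR neratinib, OVCAR8 parental control, 5637 parental control, OVCAR8 parental neratinib, 5637 NR neratinib and 5637 parental neratinib (2.83 CPM), with no overlap between neighbours. ETV5 was highest in the 4 OVCAR8 groups, where treated and untreated NR overlapped at 98.3 and 96.3 CPM, and its 3 lowest groups, all of 5637, overlapped in sequence. ETV1 followed the same division, with 23.9 CPM in OVCAR8 NR neratinib and 0.368 CPM in 5637 parental neratinib, and overlaps between the parental groups of OVCAR8 and between the treated groups of 5637. For ETS1 the 6 highest groups, from 345 to 289 CPM, each overlapped the next, and only the parental 5637 groups (99.2 and 90.9 CPM) stood apart. ETS2 was higher in every 5637 group (127 to 236 CPM) than in every OVCAR8 group (70.4 to 82.9 CPM). ELF3 separated all 4 groups of 5637 without overlap, from 306 to 23.8 CPM. EHF overlapped between neighbours among the 3 highest groups (278, 239 and 224 CPM), and ELK3 ranged from 156 CPM in OVCAR8 NR control to 60.1 CPM in 5637 NR neratinib, with 3 overlaps among neighbours.

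Across the 8 group means, centred within each line on log2(CPM + 1), ETV4 correlated with ETV1 at r = 0.949 and with ETV5 at 0.876, ETS1 with ELF3 at -0.923, and ELK3 with no other member beyond -0.482. These values describe 8 points that share lines and controls and carry no test. ELF3 and EHF reached at most 0.545 and 0.175 CPM in any OVCAR8 group mean, so their values rest mostly on the 5637 groups. Genes of similar pattern were sought by the same measure among 11848 of the genes tested on all 24 libraries. These had a mean of at least 5 CPM in at least 1 group, and clone and locus names were left out. The 3 with the most similar pattern were SPRY4 (r = 0.987), ANO1 and WNT7A for ETV1, and ZNF511 (0.992), TMEM158 and SLC20A1 for ETV4. They were TSPAN5 (0.973), ATG16L1 and ADAM19 for ETV5, PRKAR2B (0.998), LARP1B and PDCD1LG2 for ETS1, and VRK3 (0.979), ATXN3 and CDC37L1 for ETS2. For ELF3 they were STEAP4 (0.994), RARG and ANKDD1A, for EHF ZNHIT6 (0.988), SULF2 and AGPAT9, and for ELK3 CAMK2N1 (0.969), DERL1 and RNF122.

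Of the 13 other ETS genes tested in 5637, 1 rose and 4 fell with drug in parental cells, 4 rose and 3 fell in NR cells, and 5 were higher and 4 lower in untreated NR cells, with medians of 0.09, 0.00 and -0.00. Of all genes, 23.9% rose and 23.5% fell in parental cells, and 18.4% rose and 21.1% fell in NR cells. In untreated NR cells 28.4% of all genes were higher and 28% lower. With library totals as the only scaling 7 of the 13 rose in parental cells. FLI1, best known from blood and endothelium, fell with drug in both states of 5637 (-0.57 and -0.29) and was higher in NR controls (0.50), and ERF, an ETS repressor that ERK exports from the nucleus, fell with drug (-0.50 and -0.43) and was lower in NR controls (-0.65). ELF1 was lower in NR controls by -0.83 and rose there with drug (0.42). ERG, at 1.26 CPM in parental controls, fell with drug there (-1.46) and was lower in NR controls (-1.32), and ETV7 was higher in NR controls (1.00). In OVCAR8, where FLI1 was at most 0.134 CPM in any group mean, 2 of 12 rose with drug in parental cells (ELF2 by 0.45, ETV6 by 0.36) and 0 were called in NR cells or between untreated states. Without parental control replicate 2, which left 14 tested, 3 rose and 2 fell in NR cells and 0 were higher and 1 lower between untreated states. With all libraries, 16.2% of all OVCAR8 genes rose and 16.3% fell with drug in parental cells. The shares were 0.642% and 0.747% in NR cells and 4.94% and 4.91% between untreated states.

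Genes for the regulators of PEA3 repression and turnover did not share one direction. CIC itself did not pass for drug in either state of 5637 (-0.09 and -0.11) and was lower in NR controls (-0.45), where its partner ATXN1 was also lower (-0.34). RFWD2, the gene of COP1, did not pass in any of these 3 comparisons (0.07, 0.10 and 0.05). TRIB2 and TRIB1, adaptors of COP1, fell with drug in parental (-1.33 and -0.36) and NR 5637 cells (-1.26 and -0.80) and were higher in NR controls (0.36 and 0.18). Of the 8 genes, 2 rose and 2 fell with drug in each state of 5637 and 3 were higher and 3 lower in NR controls, whereas in OVCAR8 3 rose with drug in parental cells, 0 were called in NR cells (1 higher and 1 lower without parental control replicate 2) and 1 (TRIB1, 0.50) was higher in NR controls. Of all 5637 genes, 23.9% rose and 23.5% fell in parental cells, and 18.4% rose and 21.1% fell in NR cells. In 5637 NR controls 28.4% were higher and 28% lower, so the 5637 counts of this list lie near those of all genes. In OVCAR8 the shares were 16.2% rising in parental cells, 0.642% and 0.747% in NR cells, and 4.94% higher in NR controls.

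Other genes induced by ERK, a list that shares no gene with the members, mostly fell with drug in 5637: 13 of 15 tested in parental cells (median -1.73) and 14 of 15 in NR cells (median -1.81), with 0 rising. EGR1 (-8.81), SPRY4 (-5.25) and DUSP6 (-5.16), an immediate early factor and feedback inhibitors of the cascade, fell most in parental cells. In NR controls 13 of the 15 were higher and 2 lower (median 1.03), SPRY4 by 2.68 and DUSP4 by 2.46, with EGR1 (-2.26) and EPHA4 (-1.64) lower. In OVCAR8, 8 fell in parental cells (median -0.32), led by DUSP5 (-1.26), 2 fell in NR cells (median -0.19), and 10 were higher and DUSP4 (-2.38) lower in NR controls (median 0.82). Without parental control replicate 2 the count of falls in NR cells was 9. Of 9 targets of SRF and ternary complex factors such as ELK3, 8 fell and JUNB rose with drug in both states of 5637 (medians -0.59 and -1.10), and 2 of 8 tested fell in parental and 0 in NR OVCAR8 cells (6 without replicate 2). With all libraries, the shares of all genes that fell were 23.5% in parental and 21.1% in NR 5637 cells. In OVCAR8 they were 16.3% in parental and 0.747% in NR cells. In NR controls 28.4% of all genes were higher and 28% lower in 5637, and 4.94% and 4.91% in OVCAR8.

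Proteases and their regulators with ETS and AP-1 sites moved in both directions. With drug, 7 of 9 fell in parental 5637 cells, led by MMP13 (-5.39), MMP10 (-4.45) and MMP1 (-4.11), and MMP1 also fell in OVCAR8 parental (-1.56) and NR cells (-1.06). In 5637 NR controls 5 were higher, including MMP1 (2.26) and PLAUR (1.71), and MMP13 (-6.96), MMP7 (-4.49) and MMP10 (-2.44) were lower. Of 18 other epithelial genes, 14 were lower and 3 higher in 5637 NR controls (median -0.39), where ELF3 was lower and EHF higher. GRHL3 (-3.22), OVOL1 (-2.55) and KRT19 (-1.87) led the falls, while EPCAM (0.43), ESRP1 (0.32) and OVOL2 (0.65) were higher. With neratinib in 5637 NR cells, where ELF3 rose, 6 of these 18 genes fell and 4 rose. KRT18, OVOL2 and KRT8 led the falls among genes at 5 CPM or more. Mean KRT18 went from 594 CPM in NR controls to 318 CPM in treated NR cells, and mean KRT8 from 1294 to 864 CPM. The rises were OVOL1 (1.59), GRHL3 (1.67), GRHL2 (0.27) and CDH1 (0.15). Of 9 mesenchymal genes tested, 7 were higher and 0 lower in 5637 NR controls (median 0.79), among them VIM (1.63), CDH2 (0.79) and FN1 (0.65). In OVCAR8 NR controls 4 of 13 epithelial genes were lower and 1 of 10 mesenchymal genes (SNAI2, 1.11) was higher. Without parental control replicate 2, 6 epithelial genes were lower and 1 higher, and 4 mesenchymal genes were higher and 2 lower. With all libraries, 23.5% of all genes fell with drug in parental 5637 cells, and 18.4% rose and 21.1% fell in NR cells. In NR controls 28.4% of all genes were higher and 28% lower in 5637, and 4.94% and 4.91% in OVCAR8.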

How the data were processed

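RNA of 24 libraries was prepared with a stranded poly(A) kit and sequenced in paired ends, per the labels' protocols. The deposited table holds read counts per gene that the authors made, and the submitters' processing notes name FastQC, STAR 2.5.3a, featureCounts 1.15.2, DESeq2 1.18.1 and hg19. The strand setting of the counting is not given in the sources used here. Each line was fitted alone (12 libraries, 4 group means) and line differences on all 24 libraries, with edgeR 4.0.16 (R 4.3.3, limma 3.58.1): filterByExpr, TMM scaling, the quasi-likelihood F-test and Benjamini-Hochberg adjustment over all genes tested. Every adjusted p is from this test unless another tool is named. The SE is the log2 fold change divided by the square root of F, and intervals are 95%. CPM divides the counts by the library total, and TPM also by the gene length in the table. Library totals and the biological coefficient of variation (8.03% in 5637, 13.0% in OVCAR8) set the precision, and intervals cover the spread between libraries. A fold against a group at 0 uses a floor of 3 counts per library.

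The members, the gene lists and the rule for named genes were chosen with earlier results of these data known. The rule named all 8 members, the 3 genes most like each, called ETS genes at 1 CPM or more in a group, and of each other list up to 3 called genes per direction and comparison with the largest change at 5 CPM or more. CIC and RFWD2 on drug, GRHL3 in treated NR cells, DUSP4 in OVCAR8 NR controls, DHX8 and the markers fall outside it and were chosen after their values were seen. The values of 1 gene of the protease list are not reported here. The method was also run on simulated counts with the same spread for all genes and no outlying library, and the outcome is not given here. That run does not bear on the effect of OVCAR8 parental control replicate 2. Alternatives were median-ratio factors, library totals as the only scaling, DESeq2 1.42.0, limma-voom, no filter and a filter of 1 CPM in 3 libraries, the replicate number as a block, fits of 6 or 24 libraries, and each library left out.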

Additional observations from a re-analysis of the deposited data

Results flagged for a closer look

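In 21 of 40 comparisons considered an effect differed between resistance states or between lines, and each was singled out for that reason. EHF between the OVCAR8 states is among the 40 but was not tested. Of all genes, 4.21% to 18.1% were called per direction in these comparisons. Calls that some alternatives lost, as for ETV4 and ETV5 in 5637, are given in the results above. The members in the 21 reached a mean of 1 CPM in at least 1 group of each line compared. ETV5 did so in 5637 only in NR controls (4.92 CPM). EHF (4.05, the drug effect in NR cells between lines) and ELF3 (1.76, the NR effect between lines) passed as well, but stayed under 1 CPM in every OVCAR8 group and are not among the 21. Groups of 3 libraries were not screened for outlying values. The drug effect differed between NR and parental 5637 cells for ETV4 (-0.58), ETV5 (-2.90), ELF3 (0.98) and ELK3 (-0.62), and between the OVCAR8 states for ETV4 (1.09) and ETV5 (0.47), all on the log2 scale as NR minus parental.

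Between the lines, as OVCAR8 minus 5637, the drug effect in parental cells differed for ETV1 (2.79), ETV4 (1.83), ETS2 (-0.69) and ELK3 (-0.40). In NR cells it differed for ETV1 (3.87), ETV4 (3.49), ETV5 (4.29), ETS2 (-0.42) and ELK3 (0.46). The difference between untreated NR and parental cells was unlike in the lines for ETV1 (-1.13), ETV4 (-2.07), ETV5 (-4.50), ETS1 (-1.62), ETS2 (0.27) and ELK3 (0.75). The lines also received different doses of neratinib, so line and dose cannot be told apart in the drug effects.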

How the results depend on the processing

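Of 107 results on members, 73 were called, and none of these 73 changed direction in any alternative. Over 2543 alternative values, 2445 kept direction and call, 63 lost the call, 22 gained it and 13 turned direction, all 13 on results that had not passed. With library totals as the only scaling, ELK3 on drug in parental 5637 cells turned to 0.073 and ETS2 on drug in parental OVCAR8 cells to 0.060. The others turned when a library was left out. For the difference of drug effects in 5637, EHF ran from -0.058 without NR neratinib replicate 2 to 0.090 (below 0 also without replicate 3 of the NR controls, or without replicate 2 of either parental group), and ETV1 from -1.03 to 0.16 without parental neratinib replicate 3. ELF3 on drug in OVCAR8 NR cells ran from -1.32 to 0.17 without NR neratinib replicate 2. ETS1 turned without OVCAR8 parental control replicate 2: on drug in parental cells it ran from -0.082 there to 0.18, in untreated NR against parental cells from -0.034 to 0.22, and in the difference of drug effects from -0.13 to 0.12. In the line comparisons, EHF ran from -0.32 without OVCAR8 NR control replicate 2 to 2.31 and ELK3 from -0.0041 without OVCAR8 parental control replicate 3 to 0.16.

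Counts of called genes moved mostly in OVCAR8. On drug in NR cells 251 genes became 800 with DESeq2, 98 with the replicate block, 488 in the fit of 24 libraries and 3641 in the fit of 6 (members 2), and 43 to 3950 with a library left out (members 0 to 3). On drug in parental cells 5868 became 2865 in the fit of 6 libraries (members 2) and 4207 to 9117 with a library left out. The difference of these effects, 1595 genes, became 2520 with DESeq2, 2436 in the fit of 24 and 790 to 6076 with a library left out (members 1 to 4), and its called members fell to 1 with library totals as the only scaling and to 1 without a filter. Untreated NR against parental cells, 1779 genes, gave 2884 in the fit of 24 libraries, 490 in the fit of 6 and 993 to 4225 with a library left out. Treated NR against parental cells, 5596 genes, gave 10401 in the fit of 6 and 3933 to 10286 with a library left out. The difference of drug effects in 5637 gave 1459 genes in the fit of 24 libraries and 2 to 4 members with a library left out. The line differences of the drug effect gave 1550 to 3869 genes in parental and 1486 to 4141 in NR cells with a library left out. The highest OVCAR8 counts with a library left out all came without parental control replicate 2, and the cause of the other moves was not tested.

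The replicate numbers did not pair the libraries: same-numbered libraries deviated together with correlations from -0.432 to 0.296 in 5637 and from -0.233 to 0.212 in OVCAR8, each over 18 pairs of which 5 exceeded 0.1. With the replicate block, 386 of 401 results on members and named genes kept their call and 15 lost it, among members ELF3 on drug in parental OVCAR8 cells (adjusted p = 0.074). Depth limits ELF3 and EHF in OVCAR8 and ETV5 in parental 5637 cells, where groups held between 0 and 71 reads. It also limits ETV5 in treated 5637 NR cells (32 reads) and ETV1 in treated parental 5637 cells (45 reads).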
